A study of Homo sapiens with 18 samples.

Results

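The response to dihydrotestosterone (DHT) was measured in LNCaP cells in which TRIM24 had been reduced by siRNA, as 3 arrays of LNCaP siTRIM24 DHT minus 3 arrays of LNCaP siTRIM24 vehicle. These are 6 of the 18 arrays of the series. LNCaP is an androgen-dependent human prostate cancer cell line. The siTRIM24 DHT cells were transfected with an siRNA to TRIM24 for 48 h, starved of hormone in charcoal- and dextran-treated serum for 48 h and then given 10 nM DHT for 24 h. The siTRIM24 vehicle cells had the same siRNA and starvation, and ethanol in place of DHT. LNCaP sicontrol DHT and LNCaP sicontrol vehicle, 3 arrays each, had a non-targeting siRNA and the same steps, and were used for comparison. The comparison therefore has 1 cell line, 1 dose and 1 time, and the labels leave unsaid whether each group's arrays are independent cultures. The other arrays of the series are of LNCaP-abl cells with either siRNA and vehicle. They entered the choice of probe sets, the filter on dim genes and the estimate of spread, but neither DHT response. The p-values describe only how far the arrays scatter, which may be technical.

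DHT is the most active natural androgen. It binds a nuclear receptor that attaches to hormone response elements in DNA and, in the luminal cells of the prostate, switches on secreted proteases and genes of lipid metabolism and secretion while lowering others. TRIM24 is a chromatin reader with a bromodomain and a ubiquitin ligase domain, and is known as a cofactor of nuclear receptors.

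TRIM24 itself was measured first. Its log2 level was 8.09, 8.04 and 7.89 on the siTRIM24 DHT arrays and 7.73, 7.70 and 7.69 on the siTRIM24 vehicle arrays. The control siRNA arrays averaged 10.14 with DHT and 9.70 with vehicle. The siRNA thus lowered the signal by a log2 difference of -2.14 ± 0.05 with DHT and -1.99 ± 0.05 with vehicle (SE, n = 3 per group), and no siTRIM24 array overlapped a control array. This value comes from the brightest of 4 probe sets, of a design that can pick up related transcripts. The 2 dimmest probe sets lay under 5.88 log2 units, the table median used as a filter on dim genes, in all LNCaP groups, so how much transcript remained is not settled by these arrays. Between siRNAs, 40.2% of genes tested differed with DHT and 38.5% with vehicle. Within siTRIM24 cells TRIM24 was 0.30 ± 0.05 higher with DHT than with vehicle (adjusted p = 0.000281), against a change of 0.44 ± 0.05 with control siRNA. The mean of its probe sets gave 0.15 in siTRIM24 cells, where the 2 dimmest probe sets changed by -0.0079 and -0.025.

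Over the 18 arrays of the series, arrays within a group correlated at 0.996 to 0.998. Their median log2 values ranged from 5.83 to 5.93. The ratio of 3′ to 5′ probe sets of ACTB, a sign of RNA quality, was 2.19 ± 0.07 log2 units on the siTRIM24 DHT arrays and 2.05 ± 0.07 on the siTRIM24 vehicle arrays (SD, n = 3 each), against 1.85 ± 0.09 in sicontrol DHT and 1.87 ± 0.06 in sicontrol vehicle. The ratio for GAPDH was 0.63 ± 0.01 in siTRIM24 DHT and 0.59 ± 0.02 in siTRIM24 vehicle, against 0.56 ± 0.01 in sicontrol DHT and 0.52 ± 0.03 in sicontrol vehicle. The siTRIM24 arrays thus stood apart from the sicontrol arrays on this measure. For GAPDH the siTRIM24 DHT arrays, at 0.62 to 0.64, also lay above the siTRIM24 vehicle arrays, at 0.58 to 0.61. For ACTB these 2 groups overlapped. The 13 luminal epithelial markers on the array averaged 10.70 to 10.72 on the siTRIM24 DHT arrays and 10.38 to 10.41 on the siTRIM24 vehicle arrays, while their median log2 change was 0.013. The 13 leukocyte and endothelial markers averaged 4.98 to 5.07 on the siTRIM24 DHT arrays and 4.97 to 5.02 on the siTRIM24 vehicle arrays, and the 4 of them that could be tested were not called. In these bulk samples, fewer cells of a kind and less RNA per cell cannot be told apart.

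Of 13607 genes tested, 5922 (43.5%) differed between siTRIM24 DHT and siTRIM24 vehicle at an adjusted p under 0.05 by limma. DHT raised 2299 genes (16.9%) and lowered 3623 (26.6%). With the 3′ to 5′ ratios as covariates, 1991 rose and 3046 fell. Most changes were small, with a median size of 0.29 log2 units among called genes. A change of at least 2-fold was seen in 273 genes that rose (2.01%) and 204 that fell (1.5%). The median log2 change over all genes tested was -0.04.

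The 12 largest rises included genes for transport, proteolysis and secretion. SLC38A4, a neutral amino acid transporter, was at 9.31, 9.32 and 9.18 log2 units on the siTRIM24 DHT arrays and at 2.85, 2.72 and 2.64 on the siTRIM24 vehicle arrays. The log2 difference was 6.54 ± 0.10 (SE, adjusted p = 7.20e-17), and it was 3.90 when all probe sets of the gene were averaged. STEAP4, a metalloreductase, was at 9.88, 9.79 and 9.88 with DHT and at 3.75, 3.63 and 3.88 with vehicle, a difference of 6.10 ± 0.12. The mean of its probe sets gave 4.35. The prostate-specific antigen gene KLK3 was at 14.08, 14.06 and 14.05 with DHT and at 8.06, 8.01 and 8.04 with vehicle, a difference of 6.03 ± 0.13. The mean of its probe sets gave 4.17. The brightest value on each array lay between 14.73 and 14.83, so the level of KLK3 with DHT was close to the top of the range and its change may be compressed. TRPM8, a cold-sensitive cation channel, was at 11.79, 11.83 and 11.79 with DHT and at 5.88, 5.79 and 5.69 with vehicle. Its difference was 6.01 ± 0.08, and 2.98 as the mean of its probe sets. In none of these genes did a DHT array overlap a vehicle array, as was so for 56.4% of all genes tested (52.5% with control siRNA).

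The promoters of 3 of these genes are shown because the nuclear receptor for DHT recognises AGAACA, often as an inverted pair with a short spacer. Each runs from 250 bases before to 50 bases after the start of the gene, 5′ to 3′ on the strand of the gene, in RefSeq's GRCh38.p14. The intervals are chr12:46825948-46826247 on the minus strand for SLC38A4, chr7:88306845-88307144 on the minus strand for STEAP4 and chr19:50854665-50854964 on the plus strand for KLK3. Capitals mark a match to AGAACA on either strand.
SLC38A4: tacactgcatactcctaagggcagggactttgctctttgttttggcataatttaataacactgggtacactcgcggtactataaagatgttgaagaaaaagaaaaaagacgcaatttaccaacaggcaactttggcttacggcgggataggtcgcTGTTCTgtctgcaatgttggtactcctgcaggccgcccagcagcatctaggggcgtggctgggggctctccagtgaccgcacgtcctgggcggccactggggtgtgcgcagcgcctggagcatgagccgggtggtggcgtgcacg
STEAP4: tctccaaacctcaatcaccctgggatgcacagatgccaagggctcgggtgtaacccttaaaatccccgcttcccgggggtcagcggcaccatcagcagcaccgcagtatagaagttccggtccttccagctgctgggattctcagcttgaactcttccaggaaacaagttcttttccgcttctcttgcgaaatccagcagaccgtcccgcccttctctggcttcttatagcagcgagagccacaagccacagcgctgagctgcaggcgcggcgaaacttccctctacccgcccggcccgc
KLK3: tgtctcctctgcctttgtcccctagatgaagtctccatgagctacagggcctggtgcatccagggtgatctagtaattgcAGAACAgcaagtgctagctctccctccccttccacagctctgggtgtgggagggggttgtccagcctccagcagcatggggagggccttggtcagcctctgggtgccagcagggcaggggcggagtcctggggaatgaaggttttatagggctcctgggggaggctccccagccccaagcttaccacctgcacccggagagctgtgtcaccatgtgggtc

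KLK3 held 1 match starting at position -170 from the gene start, SLC38A4 held 1 on the opposite strand at position -95, and STEAP4 held none in this window. Among the genes that rose at least 2-fold, 26 of 225 promoters (11.6%) held AGAACA on either strand, as did 22 of 165 (13.3%) among those that fell at least 2-fold. The share was 9.1% of 10959 promoters of genes tested and 14.9% of all 27305 promoters in the table. The inverted pair was searched for only as an exact match with a fixed spacer, and in that form it was in none of the promoters of genes tested. Pairs with a mismatch in either part were not searched for, so their presence in the promoters of KLK3 or other genes was not tested. A match is a description of these letters and not a measurement of binding.

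Other large rises reached similar folds on their brightest probe sets. CCDC141 rose by 5.64 ± 0.08 log2 units (3.90 as the mean of its probe sets) and LINC00844, a long non-coding RNA, by 5.32 ± 0.07. SNAI2, a zinc finger transcriptional repressor, was at 10.51, 10.61 and 10.50 with DHT and at 5.56, 5.24 and 5.16 with vehicle, a difference of 5.22 ± 0.10. TMCC3 rose by 5.24 ± 0.12 and F5, coagulation factor V, by 4.93 ± 0.11, and each by 3.74 as the mean of its probe sets. KLK2, a kallikrein protease close in sequence to KLK3, rose by 4.73 ± 0.07. It rose by 3.34 as the mean of its probe sets and by 6.29 on another probe set. ORM1, an acute-phase plasma glycoprotein, was at 9.39, 9.39 and 9.42 with DHT and at 4.96, 4.85 and 4.68 with vehicle, a difference of 4.57 ± 0.07. Probe sets may not separate ORM1 from its near copy ORM2, or KLK2 from KLK3.

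**Figure D1:**
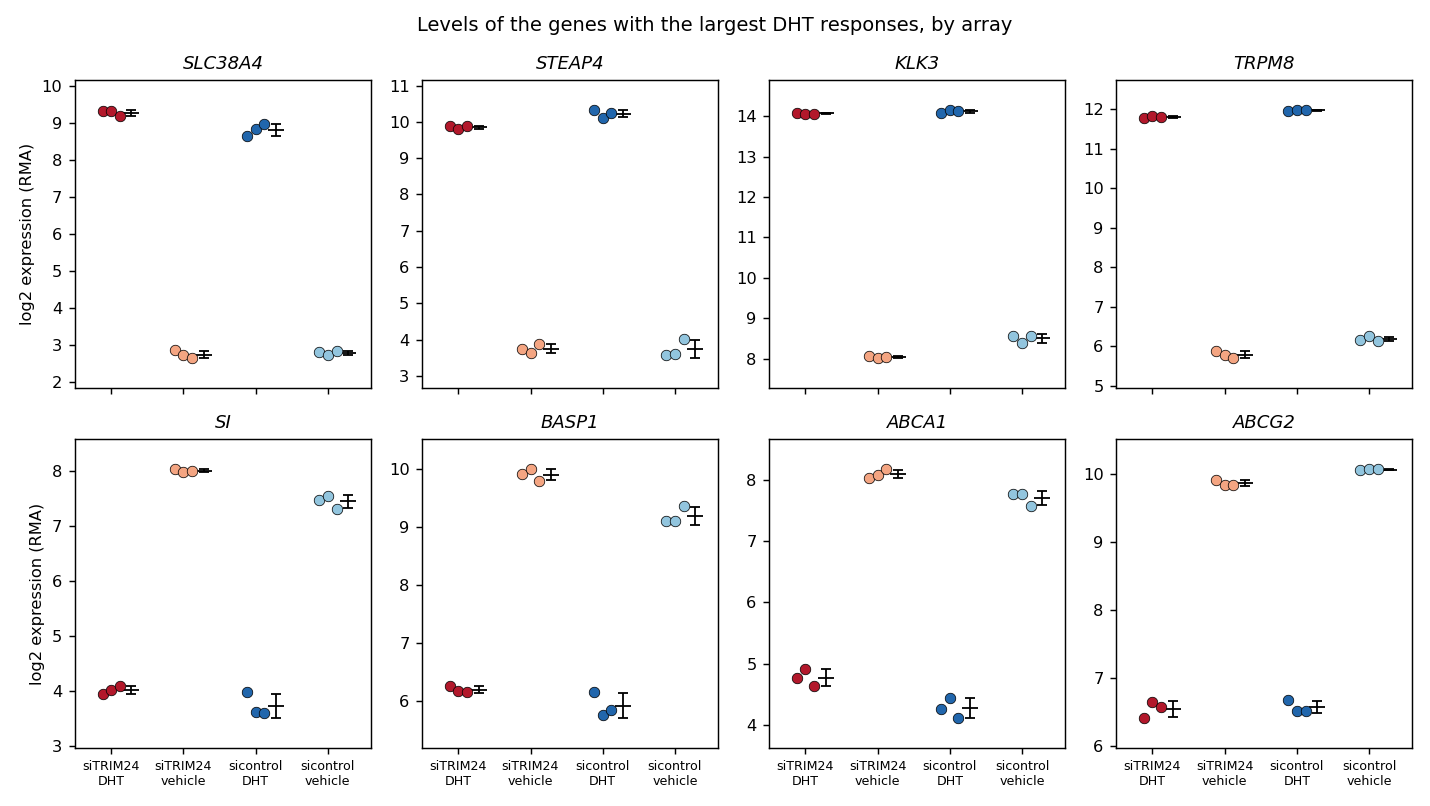
Log2 expression of 4 genes with large rises (top) and 4 with large falls (bottom) on each LNCaP array, with the group mean and SD beside the points (n = 3). In every panel the siTRIM24 DHT arrays lie apart from the siTRIM24 vehicle arrays, by 6.54 log2 units for SLC38A4 and by -3.99 for SI.

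Genes listed as androgen-induced rose almost throughout. The lists of this report were chosen with earlier results of these data known, so their counts are descriptions and no independent check. Of 42 measured, 39 rose and 1 fell, with a median log2 change of 2.35 beside -0.04 over all genes tested. The counts of rises and falls in siTRIM24 cells for every list stand beside 16.9% of all genes tested that rose and 26.6% that fell. FKBP5, a cochaperone of steroid receptors, was at 13.00, 13.02 and 12.98 with DHT and at 9.23, 9.23 and 9.30 with vehicle, a difference of 3.75 ± 0.04 (adjusted p = 6.32e-18). TMPRSS2, a membrane serine protease, rose by 2.87 ± 0.03, and SLC45A3, a membrane transporter of prostate epithelium, by 3.12 ± 0.06. Regulators of transcription were among them: EAF2, an elongation factor partner, rose by 3.78 ± 0.06, MAF, a leucine zipper factor, by 3.70 ± 0.10, and ZBTB10 by 1.56 ± 0.06. The mean of the probe sets of MAF gave 2.21. CENPN, a kinetochore protein, rose by 3.08 ± 0.04 and SGK1, a kinase induced by steroids, by 2.15 ± 0.04.

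The remaining members show the limits of the list. KLK4 rose by 0.68 ± 0.06, and by 2.60 on its most variable probe set. CHRNA2, a nicotinic receptor subunit, changed by 0.20 ± 0.09 (adjusted p = 0.0828) and STEAP2 by 0.08 ± 0.03 (adjusted p = 0.0579), and neither passed the test. TSC22D3, a glucocorticoid-induced leucine zipper protein, was the 1 that fell, by -0.13 ± 0.05 (adjusted p = 0.0430), and it lost this call under 13 of 19 alternatives.

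**Figure D2:**
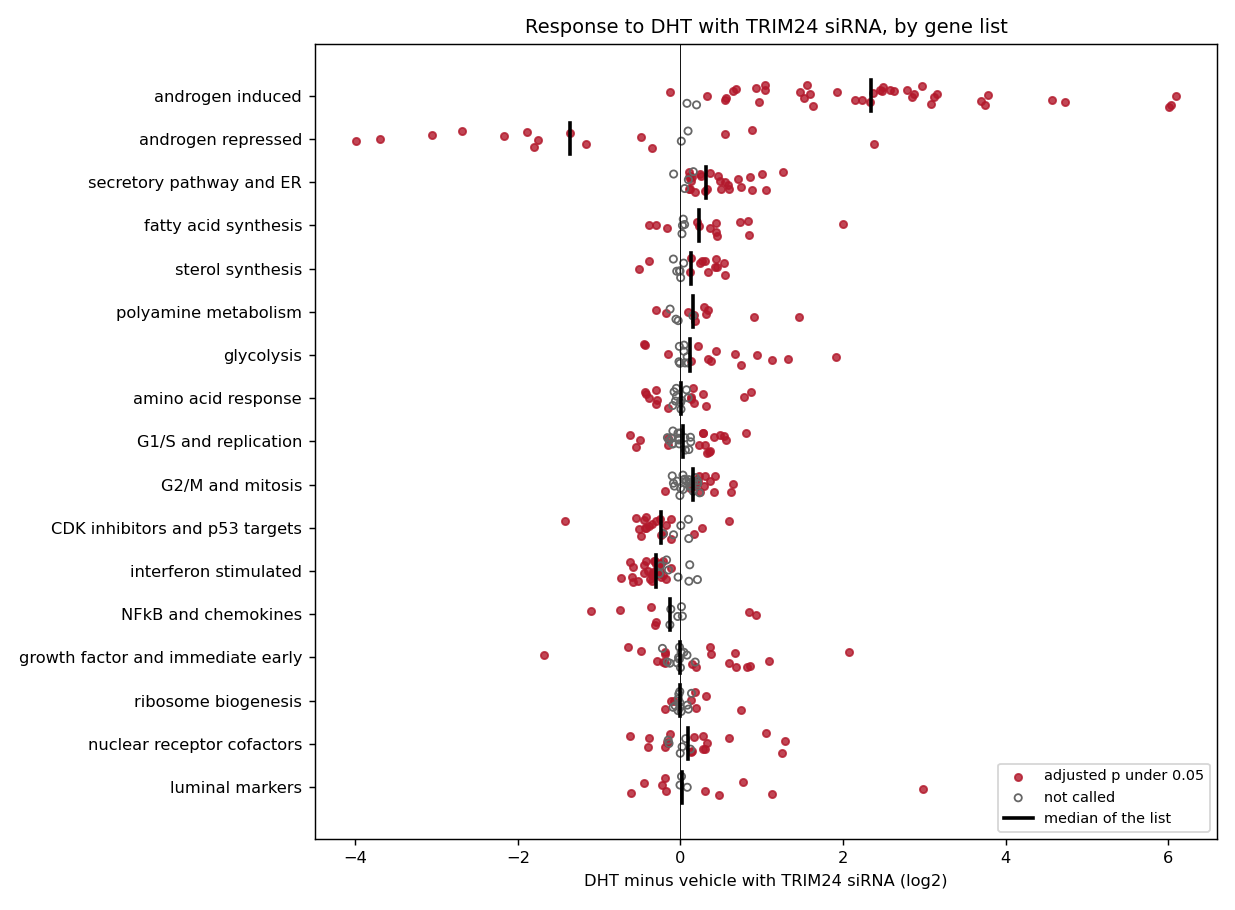
Log2 change with DHT in siTRIM24 cells for each measured member of 17 gene lists, with filled points at an adjusted p under 0.05, open points not called and a bar at the list median. Androgen-induced genes have a median of 2.35 and androgen-repressed genes of -1.36, while the interferon-stimulated list lies at -0.30. The lists were chosen with earlier results of these data known.

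The largest falls were smaller than the largest rises. SI, sucrase-isomaltase, was at 3.94, 4.02 and 4.09 log2 units with DHT and at 8.04, 7.99 and 7.99 with vehicle, a difference of -3.99 ± 0.09 (adjusted p = 7.30e-15). BASP1, a membrane-bound signalling protein, changed by -3.69 ± 0.10 and by -1.84 as the mean of its probe sets. ABCA1, which exports cholesterol, was at 4.76, 4.91 and 4.63 with DHT and at 8.04, 8.08 and 8.18 with vehicle, a difference of -3.33 ± 0.09, and of -1.85 as the mean of its probe sets. ABCG2, a drug efflux pump, changed by -3.32 ± 0.07, OPRK1, the kappa opioid receptor, by -3.06 ± 0.07, AMIGO2, an adhesion protein, by -2.90 ± 0.05 and SLC6A19, a neutral amino acid transporter, by -2.77 ± 0.08. The DHT levels of SI and ABCA1, like the vehicle levels of most of the large rises named above, were under the filter of 5.88 on the log2 scale, where folds are compressed.

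Genes listed as androgen-repressed mostly fell, in a list also chosen with earlier results of these data known. Of 17 measured, 12 fell and 3 rose, the rises near the share of all genes tested, with a median of -1.36. UGT2B15 and UGT2B17 encode enzymes that inactivate androgens by adding glucuronic acid. UGT2B15 was at 11.35, 11.27 and 11.21 with DHT and at 12.98, 13.07 and 13.02 with vehicle, a difference of -1.75 ± 0.04, and UGT2B17 changed by -1.36 ± 0.07. CAMK2N1, an inhibitor of a calcium-dependent kinase, changed by -1.89 ± 0.05 and FOLH1, prostate-specific membrane antigen, by -0.36 ± 0.08. The 3 that rose were UGT2B28 by 0.88 ± 0.05, GRIN3A, a glutamate receptor subunit, by 2.38 ± 0.11 (1.30 as the mean of its probe sets) and TMEFF2, a membrane protein, by 0.55 ± 0.06. The UGT2B genes are near copies, and their probe sets may share signal.

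Genes of secretion and lipid synthesis moved mostly upward. Of 30 secretory pathway and endoplasmic reticulum genes, 26 rose and none fell, with a median of 0.31. SPDEF, a transcription factor of secretory epithelium, rose by 1.26 ± 0.04 (0.68 as the mean of its probe sets), CREB3L4, a membrane-bound factor of the secretory route, by 1.05 ± 0.04, SPCS3, a signal peptidase subunit, by 0.998 ± 0.04 and DNAJB9, a chaperone partner, by 0.86 ± 0.03. XBP1, a factor of the unfolded protein response, changed by -0.08 ± 0.05 (adjusted p = 0.209). Of 17 fatty acid synthesis genes, 10 rose and 3 fell, with a median of 0.23. ELOVL7 and ELOVL5, which lengthen fatty acids, rose by 2.00 ± 0.04 and 0.73 ± 0.04. FASN, fatty acid synthase, rose by 0.84 ± 0.05 (0.40 as the mean of its probe sets), ACACA, which makes malonyl-CoA, by 0.83 ± 0.05 and SCD, a desaturase, by 0.44 ± 0.03 (0.24 as the mean of its probe sets).

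Sterol synthesis was more mixed. Of 19 genes, 11 rose and 2 fell, with a median of 0.12, and 7 rose when genes were represented by their most variable probe sets. HMGCS1, an early enzyme of the route, was at 9.88, 9.79 and 9.84 with DHT and at 9.31, 9.26 and 9.29 with vehicle, a difference of 0.55 ± 0.06. SC5D rose by 0.54 ± 0.03. IDI1 rose by 0.43 ± 0.03 on its brightest probe set and changed by -0.31 on its most variable one, so its direction depends on the probe set. TM7SF2, a sterol reductase, fell by 0.51 and STARD4, a sterol carrier, fell by 0.38.

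Of 14 polyamine genes, 8 rose and 2 fell, with a median of 0.16, and 5 rose with 3′ to 5′ ratios as covariates or with probe sets averaged. SMS, spermine synthase, rose by 1.46 ± 0.05 and ODC1, the first enzyme of the route, by 0.90 ± 0.03, while AZIN1, which protects ODC1 from degradation, changed by -0.29 ± 0.03. Of 22 glycolysis genes, 11 rose and 3 fell, with a median of 0.11. HK2, a hexokinase, rose by 1.32 ± 0.05 (0.61 as the mean of its probe sets), PFKFB2, which makes an activator of phosphofructokinase, by 1.12 ± 0.08 (0.74 as that mean), SLC2A1, a glucose transporter, by 0.95 ± 0.06 (0.59 as that mean) and LDHA, lactate dehydrogenase, by 0.68 ± 0.03. PFKM, the muscle phosphofructokinase, changed by -0.43 ± 0.03. Of 25 amino acid response genes, 8 rose and 7 fell, the falls near the 26.6% over all genes tested. SLC7A11, a cystine transporter, rose by 0.86 ± 0.07 and PSAT1, of serine synthesis, changed by -0.42 ± 0.06.

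Cell cycle genes rose in part. Of 37 G2/M and mitosis genes, 14 rose and 1 fell, with a median of 0.16. ANLN, a protein of the cleavage furrow, was at 7.27, 7.01 and 7.16 with DHT and at 6.45, 6.51 and 6.54 with vehicle, a difference of 0.65 ± 0.09. TTK, a spindle checkpoint kinase, rose by 0.62 ± 0.09 and KIF20A, a mitotic kinesin measured below the filter value in these 6 arrays, by 0.43 ± 0.04. BUB1B, another checkpoint kinase, changed by -0.10 ± 0.07 (adjusted p = 0.246), with overlapping arrays. Of 34 G1/S and replication genes, 12 rose and 5 fell, with a median of 0.03. RRM2, a ribonucleotide reductase subunit, rose by 0.81 ± 0.06 (0.52 on its most variable probe set), while CCNE2, cyclin E2, changed by -0.62 ± 0.09 and MCM2, of the replicative helicase, by -0.50 ± 0.04.

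Of 25 CDK inhibitors and p53 targets, 17 fell and 3 rose, with a median of -0.23. Without siTRIM24 DHT replicate 1, 11 fell. TP53INP1, a stress response protein, was at 10.16, 10.16 and 10.17 with DHT and at 11.59, 11.61 and 11.55 with vehicle, a difference of -1.42 ± 0.04, and of -0.64 as the mean of its probe sets. SESN1, a stress-induced sestrin, changed by -0.51 ± 0.03 and CDKN1A, the CDK inhibitor p21, by -0.48 ± 0.04. TNFRSF10B, a death receptor, rose by 0.59 ± 0.03. Of 20 ribosome biogenesis genes, 5 rose and 3 fell. RRP12 rose by 0.19 ± 0.05 but changed by -0.034 as the mean of its probe sets, and POLR1B changed by -0.19 ± 0.06.

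Interferon-stimulated genes fell with DHT. Of 37 measured, 29 fell and none rose, with a median of -0.30. RSAD2, the antiviral protein viperin, was at 11.19, 11.06 and 11.11 with DHT and at 11.81, 11.88 and 11.88 with vehicle, a difference of -0.73 ± 0.06 (adjusted p = 1.58e-08). OASL, of the oligoadenylate synthetase family, was at 11.09, 11.12 and 11.18 with DHT and at 11.67, 11.73 and 11.75 with vehicle, a difference of -0.59 ± 0.04. IFIH1 and RIGI, which sense viral RNA, changed by -0.62 ± 0.07 and -0.59 ± 0.05. On its most variable probe set IFIH1 changed by -0.21 and was not called. IFIT3 and HERC5, antiviral effectors, each changed by -0.45 ± 0.04, and IFIT probe sets may share signal among family members. Of 12 NF-kB and chemokine genes, 2 rose, near the share of all genes tested, and 5 fell. Without siTRIM24 DHT replicate 1 or without siTRIM24 vehicle replicate 3, 3 fell, which is also near the share. The 2 that rose, NFKBIA by 0.93 ± 0.04 (0.42 as the mean of its probe sets) and TNFAIP3 by 0.85 ± 0.07, encode inhibitors of NF-kB, while NFKB1, a subunit of it, changed by -1.10 ± 0.05.

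Growth factor and immediate early genes split, with 11 of 31 higher and 8 lower, where 16.9% of all genes tested rose and 26.6% fell. IRS2, an insulin receptor adaptor, rose by 2.08 ± 0.13, EGFR, a growth factor receptor, rose by 1.09 ± 0.08 (0.43 as the mean of its probe sets) and DUSP5, a phosphatase of ERK, changed by -1.67 ± 0.09. Of 24 nuclear receptor cofactors, 11 rose and 7 fell, the falls near the share of all genes tested. GRHL2, an epithelial transcription factor, rose by 1.28 ± 0.04, PIAS1, a SUMO ligase, by 1.25 ± 0.05 and KDM4B, a histone demethylase, by 1.05 ± 0.05 (0.55 as the mean of its probe sets), while NCOA2, a steroid receptor coactivator, changed by -0.63 ± 0.04 (-0.30 as that mean).

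Among 13 luminal markers 5 rose and 5 fell. The keratins KRT19, KRT8 and KRT18 rose by 2.99 ± 0.12 (1.48 as the mean of its probe sets), 1.13 ± 0.04 and 0.77 ± 0.04, and ACP3, prostatic acid phosphatase, changed by -0.60 ± 0.03. Of 12 fibroblast and mesenchymal markers 2 rose and 3 fell, both near the shares of all genes tested, with SNAI2 the largest rise. Only 3 of the 7 basal markers on the array were tested, and these 3 fell. KRT14, untested and under the filter, averaged 4.94 in siTRIM24 DHT and 4.24 in siTRIM24 vehicle cells. Of 8 neuroendocrine markers tested 2 fell and none rose. That count of falls is near the 26.6% of all genes tested that fell.

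The response was then set beside that of cells with control siRNA, whose arrays had lower 3′ to 5′ ratios, in which 6223 genes (45.7%) were called, 2635 higher (19.4%) and 3588 lower (26.4%). The 2 responses share no arrays. Across the 13607 genes their log2 changes correlated with Pearson's r of 0.92, as a description, since genes are not independent. Of 272 genes at least 2-fold higher with control siRNA, 271 also rose in siTRIM24 cells, 225 of them at least 2-fold, and the median change was 1.42 in siTRIM24 cells and 1.48 in sicontrol cells. Of 190 genes at least 2-fold lower with control siRNA (1.4% of genes tested), all 190 fell in siTRIM24 cells. Their medians were -1.31 in siTRIM24 cells and -1.33 in sicontrol cells. These genes were chosen on sicontrol values, which favours larger changes there. The 273 genes at least 2-fold higher in siTRIM24 cells had medians of 1.46 in siTRIM24 and 1.47 in sicontrol cells. For the 204 at least 2-fold lower in siTRIM24 cells, medians were -1.31 in siTRIM24 and -1.26 in sicontrol cells.

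**Figure D3:**
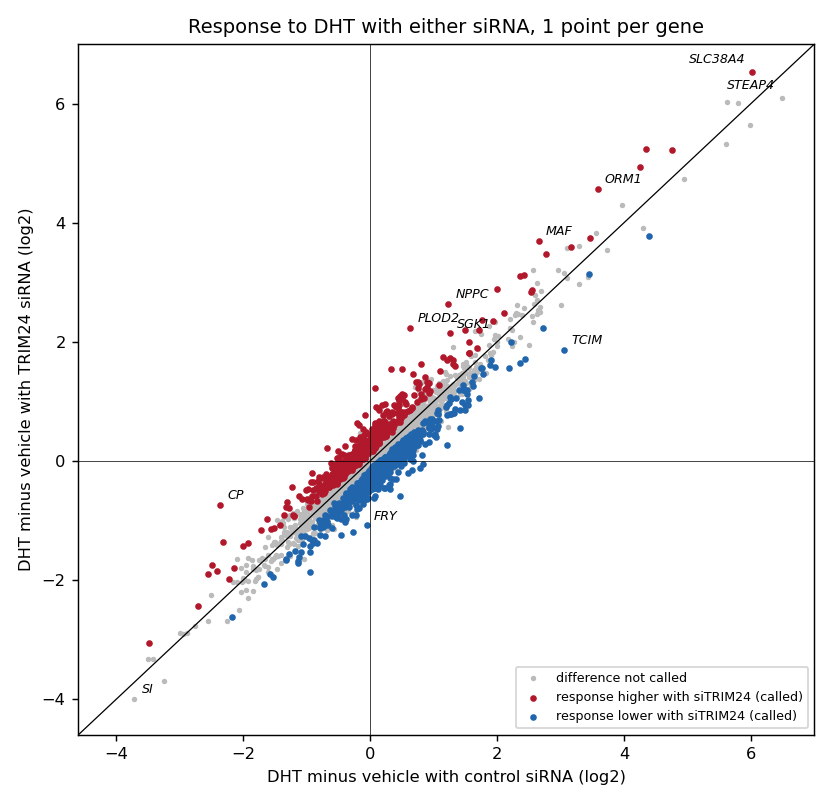
Log2 change with DHT in siTRIM24 cells (vertical) against sicontrol cells (horizontal) for the 13607 genes tested, with colour where the difference of the changes had an adjusted p under 0.05. Points follow the line of equal change, with r of 0.92, and PLOD2, NPPC and CP lie above it while TCIM and FRY lie below.

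The difference of the DHT responses, tested as an interaction, was called for 1507 genes (11.1%), 732 with a higher log2 change in siTRIM24 cells (5.38%) and 775 with a lower one (5.7%). Of these, 7 and 3 differed by at least 2-fold. In 105 genes the responses were called in opposite directions, 59 higher with siTRIM24 and lower with sicontrol and 46 the other way. Of the 272 genes at least 2-fold higher with control siRNA, 33 had a higher change in siTRIM24 cells and 54 a lower one. Of the 190 at least 2-fold lower, 27 had a higher change and 15 a lower one. With genes chosen on siTRIM24 values instead, the counts were 60 and 28 of 273, and 14 and 41 of 204. Their balance thus depends on which siRNA set the threshold.

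Among androgen-induced genes 10 of 42 had a higher change in siTRIM24 cells and 3 a lower one. Medians were 2.35 in siTRIM24 cells and 2.22 in sicontrol cells. Of all genes tested, 5.38% had a higher change and 5.7% a lower one, and each list's count of differences stands beside these shares. The count of 3 lower is near its share. SGK1 rose by 2.15 ± 0.04 in siTRIM24 cells and by 1.26 ± 0.04 in sicontrol cells (difference 0.89 ± 0.06, adjusted p = 1.67e-06). ORM1 rose by 4.57 ± 0.07 in siTRIM24 cells and 3.58 ± 0.07 in sicontrol cells (difference 0.99 ± 0.09), and MAF by 3.70 ± 0.10 in siTRIM24 cells and 2.65 ± 0.10 in sicontrol cells (difference 1.04 ± 0.14). EAF2 and ZBTB10 rose less in siTRIM24 cells, with differences between siTRIM24 and sicontrol cells of -0.60 ± 0.08 for EAF2 and -0.62 ± 0.09 for ZBTB10. For KLK3 and STEAP4 the differences of 0.41 ± 0.19 (adjusted p = 0.176) and -0.40 ± 0.18 (adjusted p = 0.167) did not pass.

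Of 17 androgen-repressed genes, 8 had a higher change in siTRIM24 cells and none a lower one, beside 5.38% and 5.7% of all genes tested. For OPRK1, CAMK2N1, UGT2B15, UGT2B17 and FOLH1 this was a smaller fall. With the most variable probe sets the count was 5. UGT2B15 changed by -1.75 ± 0.04 in siTRIM24 cells and by -2.49 ± 0.04 in sicontrol cells (difference 0.74 ± 0.05, adjusted p = 1.67e-06), and UGT2B17 by -1.36 ± 0.07 in siTRIM24 cells and -2.33 ± 0.07 in sicontrol cells (difference 0.97 ± 0.10). UGT2B28 rose by 0.88 ± 0.05 in siTRIM24 cells and changed by 0.12 ± 0.05 in sicontrol cells, where it was not called.

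For interferon-stimulated genes 18 of 37 had a lower change in siTRIM24 cells and none a higher one, beside 5.7% and 5.38% of all genes tested. Medians were -0.30 in siTRIM24 cells and -0.11 in sicontrol cells. With control siRNA 9 rose and 11 fell, beside 19.4% and 26.4% of all genes tested. The levels show where the groups stood. OASL averaged 11.13 ± 0.05 in siTRIM24 DHT and 11.72 ± 0.04 in siTRIM24 vehicle cells, and 10.78 ± 0.07 in sicontrol DHT and 10.71 ± 0.05 in sicontrol vehicle cells (SD, n = 3 each), so its level was above the control siRNA arrays in both siTRIM24 groups. IFIT3 changed by -0.45 ± 0.04 in siTRIM24 cells and 0.23 ± 0.04 in sicontrol cells (difference -0.69 ± 0.06, adjusted p = 5.93e-06), and HERC5 by -0.45 ± 0.04 in siTRIM24 cells and 0.22 ± 0.04 in sicontrol cells. The chemokine CXCL11 changed by -0.05 ± 0.07 in siTRIM24 cells (not called) and rose by 0.83 ± 0.07 in sicontrol cells (difference -0.87 ± 0.10). CXCL8 changed by -0.12 ± 0.11 in siTRIM24 cells (not called) and by 0.79 ± 0.11 in sicontrol cells (difference -0.90 ± 0.15). CXCL11 averaged 9.33 in siTRIM24 DHT and 9.37 in siTRIM24 vehicle cells, against 8.91 in sicontrol DHT and 8.08 in sicontrol vehicle cells. CXCL8 averaged 8.15 and 8.27 in siTRIM24 cells with DHT and vehicle, against 7.54 and 6.75 in sicontrol cells. For both chemokines the siRNAs thus differed more with vehicle than with DHT.

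**Figure D4:**
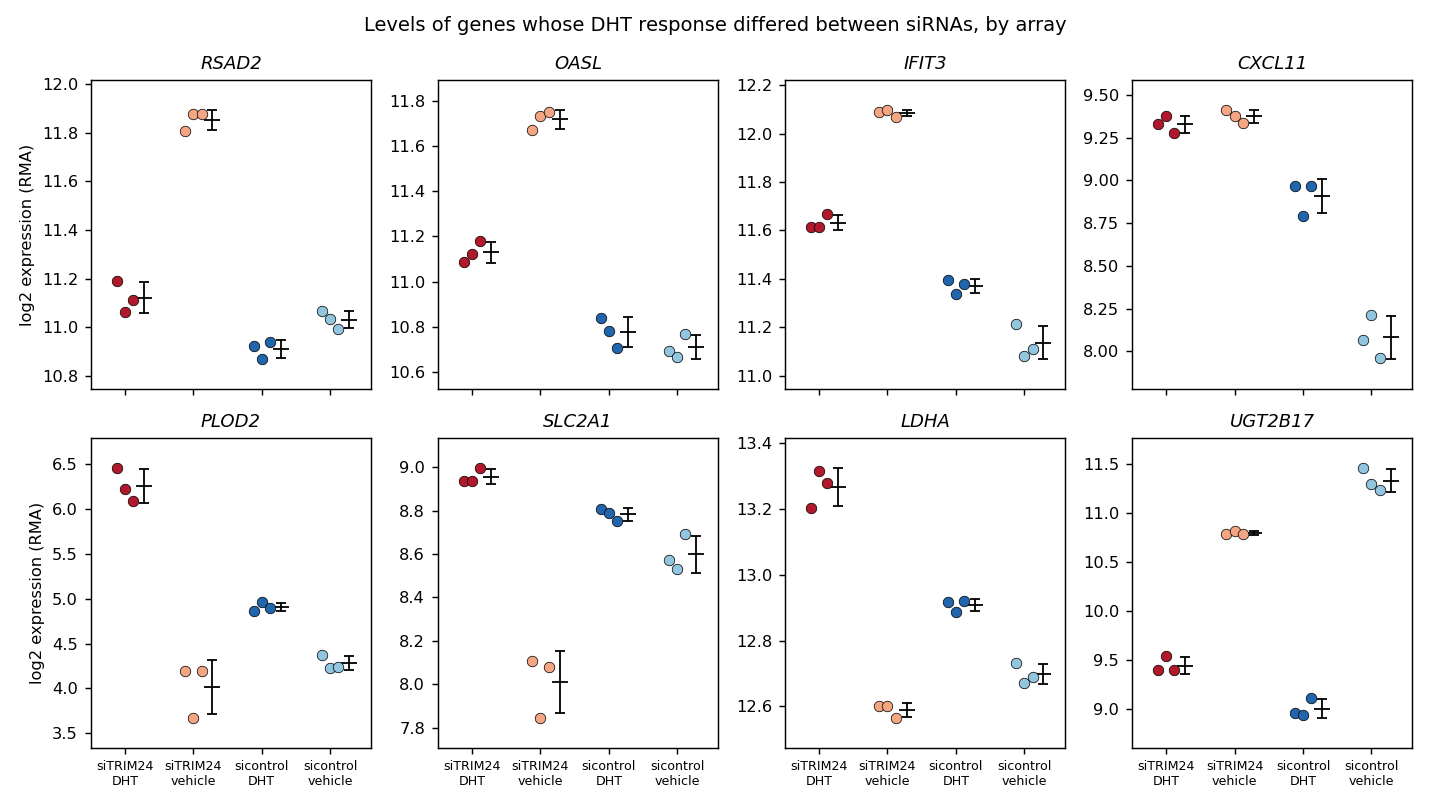
Log2 expression of 8 genes with a called difference of the DHT responses on each LNCaP array, with the group mean and SD (n = 3). The interferon-stimulated RSAD2, OASL and IFIT3 are highest in siTRIM24 vehicle, while LDHA and SLC2A1 are lowest there.

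For glycolysis, 6 of 22 genes had a higher change in siTRIM24 cells and none a lower one, beside 5.38% and 5.7% of all genes tested. SLC2A1 averaged 8.96 ± 0.03 in siTRIM24 DHT and 8.01 ± 0.14 in siTRIM24 vehicle cells, and rose by 0.95 ± 0.06 in siTRIM24 cells and changed by 0.19 ± 0.06 in sicontrol cells, where the call was lost under 7 of 18 alternatives (difference 0.76 ± 0.09, adjusted p = 8.06e-05). LDHA rose by 0.68 ± 0.03 in siTRIM24 cells and 0.21 ± 0.03 in sicontrol cells (difference 0.47 ± 0.05), and HK2 by 1.32 ± 0.05 in siTRIM24 cells and 0.75 ± 0.05 in sicontrol cells (difference 0.57 ± 0.07). Of 30 secretory genes 7 had a higher change and none a lower one, a count that was 3 with arrays centred on their medians and 13 with an intensity trend and robust variances. SPCS3 rose by 0.998 ± 0.04 in siTRIM24 cells and 0.46 ± 0.04 in sicontrol cells. ODC1 rose by 0.90 ± 0.03 in siTRIM24 cells and 0.44 ± 0.03 in sicontrol cells, while SMS rose by 1.46 ± 0.05 in siTRIM24 cells and 1.78 ± 0.05 in sicontrol cells.

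For cell division, 9 of 37 G2/M genes and 6 of 34 G1/S genes had a lower change in siTRIM24 cells and none a higher one. Of all genes tested, 5.7% had a lower change and 5.38% a higher one. The G2/M median was 0.16 in siTRIM24 cells and 0.32 in sicontrol cells, where 26 rose. RRM2 rose by 0.81 ± 0.06 in siTRIM24 cells and 1.31 ± 0.06 in sicontrol cells (difference -0.50 ± 0.09), though the difference was not called on its most variable probe set. HMGCS1, of sterol synthesis, rose by 0.55 ± 0.06 in siTRIM24 cells and 1.42 ± 0.06 in sicontrol cells (difference -0.86 ± 0.08, adjusted p = 1.92e-05). It averaged 9.28 in siTRIM24 vehicle and 8.33 in sicontrol vehicle cells, and 9.83 in siTRIM24 DHT and 9.74 in sicontrol DHT cells.

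Among the largest differences over all genes tested, PLOD2, a collagen lysyl hydroxylase, was at 6.46, 6.23 and 6.08 in siTRIM24 DHT and 4.19, 3.67 and 4.20 in siTRIM24 vehicle cells. It rose by 2.24 ± 0.12 in siTRIM24 cells and 0.63 ± 0.12 in sicontrol cells (difference 1.61 ± 0.17). Among the LNCaP groups only siTRIM24 DHT was above the filter of 5.88, with 4.91 in sicontrol DHT and 4.28 in sicontrol vehicle cells, so these sizes are uncertain, and its other probe set gave 3.29 in siTRIM24 and 1.38 in sicontrol cells. NPPC, C-type natriuretic peptide, rose by 2.64 ± 0.06 in siTRIM24 cells and 1.23 ± 0.06 in sicontrol cells (difference 1.41 ± 0.09). Its vehicle levels, 4.65 in siTRIM24 and 4.79 in sicontrol cells, were under the filter. TMPRSS11E, a serine protease, rose by 1.55 ± 0.06 in siTRIM24 cells, from a vehicle level of 5.18, and by 0.32 ± 0.06 in sicontrol cells. STYXL2 rose by 1.22 ± 0.10 in siTRIM24 cells. In sicontrol cells STYXL2 changed by 0.07 ± 0.10 and was not called, with levels under the filter (5.81 with DHT and 5.74 with vehicle). CP, ceruloplasmin, changed by -0.74 ± 0.14 in siTRIM24 cells (-1.48 on its most variable probe set) and -2.37 ± 0.14 in sicontrol cells (difference 1.63 ± 0.19). Its DHT levels of 5.38 in siTRIM24 and 5.32 in sicontrol cells were both under the filter, and its vehicle levels were 6.12 in siTRIM24 and 7.69 in sicontrol cells, so the falls may be cut short. The other probe sets of CP gave differences of 1.06, 0.70 and 0.88. AMOTL1, a partner of Yes-associated protein, was higher by 0.22 ± 0.07 in siTRIM24 cells and changed by -0.69 ± 0.07 in sicontrol cells, and the first of these values was -0.040 as the mean of its probe sets. Its call in siTRIM24 cells was also lost without siTRIM24 DHT replicate 1, siTRIM24 vehicle replicate 1 or siTRIM24 vehicle replicate 3. AMOTL1 averaged 7.32 in siTRIM24 vehicle and 8.22 in sicontrol vehicle cells, and 7.54 in siTRIM24 DHT and 7.53 in sicontrol DHT cells.

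In the other direction, TCIM rose by 1.87 ± 0.09 in siTRIM24 cells and 3.05 ± 0.09 in sicontrol cells (difference -1.19 ± 0.13, adjusted p = 3.68e-05). Its vehicle levels, 5.35 in siTRIM24 and 4.80 in sicontrol cells, were under the filter. FRY changed by -1.08 ± 0.06 in siTRIM24 cells and -0.06 ± 0.06 in sicontrol cells (not called), and SMIM31 by -0.59 ± 0.08 in siTRIM24 cells and 0.47 ± 0.08 in sicontrol cells. CAMK2D, a calcium-dependent kinase, rose by 0.27 ± 0.05 in siTRIM24 cells and 1.22 ± 0.05 in sicontrol cells. SGTB, a cochaperone, changed by -1.20 ± 0.07 in siTRIM24 cells and -0.28 ± 0.07 in sicontrol cells, and UBE2QL1, of the ubiquitin-conjugating family, by -1.87 ± 0.09 in siTRIM24 cells and -0.95 ± 0.09 in sicontrol cells. By the mean of their probe sets, the siTRIM24 changes of SGTB and UBE2QL1 were -0.79 and -1.10. UBE2QL1 was under the filter in siTRIM24 DHT, at 5.71. NR3C2, the mineralocorticoid receptor, changed by -0.16 ± 0.08 in siTRIM24 cells (not called) and rose by 0.66 ± 0.08 in sicontrol cells (difference -0.81 ± 0.12). With vehicle, SMIM31 averaged 7.27 in siTRIM24 and 6.10 in sicontrol cells, FRY 8.19 and 7.36, and SGTB 10.42 and 9.68. With DHT these were 6.68 and 6.57, 7.11 and 7.30, and 9.22 and 9.40. CAMK2D and NR3C2 instead differed more with DHT, at 8.71 in siTRIM24 and 9.66 in sicontrol cells, and 7.20 and 7.83. Their vehicle levels were 8.44 in both for CAMK2D, and 7.36 and 7.18 for NR3C2.

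**Figure D5:**
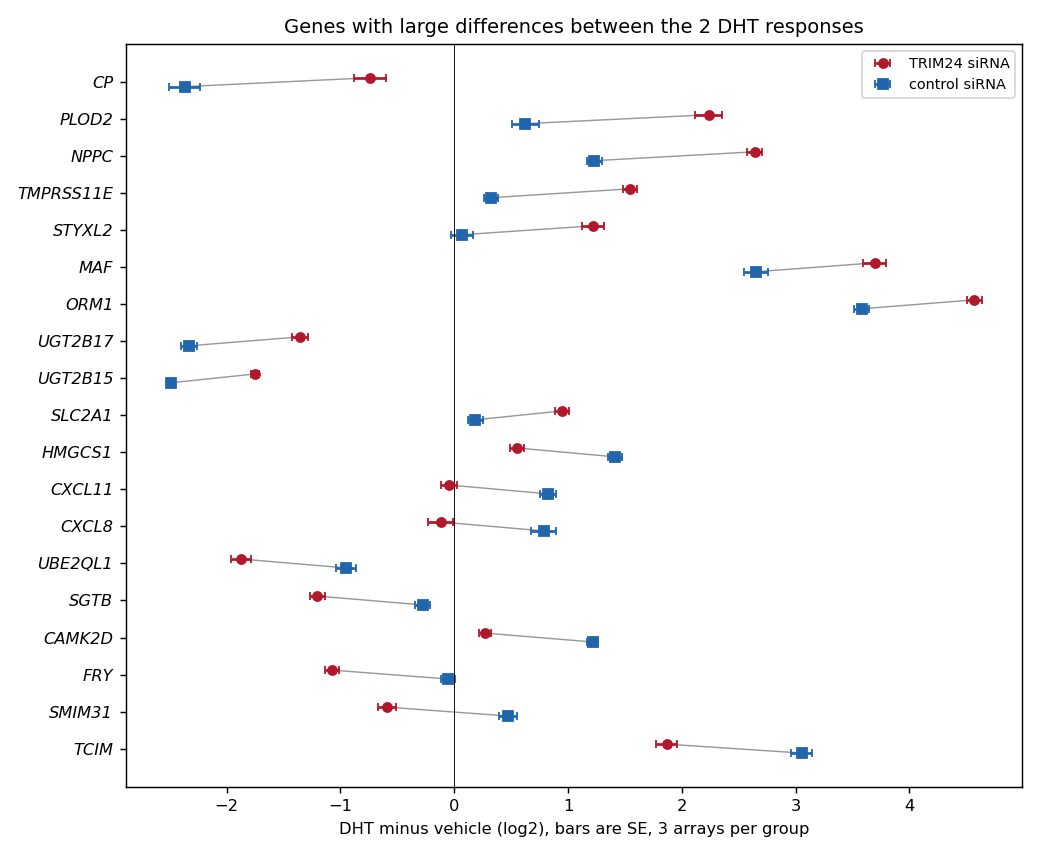
Log2 change with DHT and its SE in siTRIM24 cells (circles) and sicontrol cells (squares) for 19 genes with a called difference, 3 arrays per group. The upper 10 genes lie further right in siTRIM24 cells, with NPPC at a difference of 1.41, and the lower 9 lie further left, with TCIM at -1.19.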

How the data were processed

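Expression was measured on 18 Affymetrix arrays in 6 groups of 3. The deposited values are log2 expression per probe set, made by the authors with RMA, per the submitters' processing notes. Arrays carry no read depth, and their number limits the precision.

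Of 54675 probe sets, 41097 had 1 gene symbol, 1801 had several and 11777 none. Each of 19775 genes was represented by its brightest probe set, and 13607 genes at or above the table median of 5.88 on at least 3 arrays were tested. The 6 groups were fitted together with limma 3.58.1 in R 4.3.3, leaving 12 residual degrees of freedom, with Benjamini-Hochberg adjustment at 0.05. On simulated data, 54 of 100 changes of 0.25 and 92 of 100 of 0.5 log2 units were recovered for the DHT response with TRIM24 siRNA. There were 6 false among 152 calls. Only these genes of 13607 were changed, with independent normal noise, while 43.5% were called in the data. The recovery thus describes a sparser setting with a stricter cutoff than the one reported.

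The naming rule took TRIM24, the 12 largest rises and falls, the 5 members of each list with the smallest adjusted p and the 10 largest differences in each direction. It picked 140 genes, of which 93 are described and 47 appear only within counts. The other 23 genes named were chosen after their values were seen. Members and lists were chosen with earlier results of these data known. Some listed genes were not analysed here, and counts are of measured members. Replicate numbers were not used as pairs. Correlations of same-numbered arrays' deviations were 0.04, 0.04 and -0.08 with TRIM24 siRNA and -0.07, -0.23 and -0.30 with control siRNA. Differently numbered arrays reached 0.29 with control siRNA. With 3 arrays per group, such values cannot settle whether the samples were paired. Alternatives varied scaling, filter, probe set, covariates, weights, thresholds and arrays.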

Additional observations from a re-analysis of the deposited data

Results flagged for a closer look

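These results were picked out because the response to DHT differed between siTRIM24 and sicontrol cells by the interaction test. Over all genes tested, the log2 change was higher in siTRIM24 cells for 732 genes and lower for 775. Among the genes named, the change in siTRIM24 cells exceeded that in sicontrol cells most for CP by 1.63, PLOD2 by 1.61, NPPC by 1.41, TMPRSS11E by 1.23, STYXL2 by 1.15, MAF by 1.04, ORM1 by 0.99, UGT2B17 by 0.97, AMOTL1 by 0.90, TMCC3 by 0.89, SGK1 by 0.89, UGT2B28 by 0.76 and SLC2A1 by 0.76 (log2). It was also higher for UGT2B15 by 0.74, LOX by 0.71, SLC45A3 by 0.70, F5 by 0.69, CAMK2N1 by 0.66, HK2 by 0.57, FOLH1 by 0.54, SPCS3 by 0.54, SLC38A4 by 0.52, P4HA1 by 0.50, LDHA by 0.47, SNAI2 by 0.46 and ODC1 by 0.46. Smaller excesses were those of SCD by 0.45, OPRK1 by 0.43, HILPDA by 0.41, PLOD1 by 0.37, TMPRSS2 by 0.33, SESN1 by 0.30, FKBP5 by 0.29, FASN by 0.25, P4HA2 by 0.23, RRP12 by 0.22, CREB3L4 by 0.21, GRHL2 by 0.20 and KRT8 by 0.20.

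The change in siTRIM24 cells was lower than that in sicontrol cells with log2 differences of -1.19 for TCIM, -1.07 for SMIM31, -1.02 for FRY, -0.95 for CAMK2D, -0.93 for SGTB, -0.92 for UBE2QL1, -0.90 for CXCL8, -0.87 for CXCL11, -0.86 for HMGCS1, -0.81 for NR3C2, -0.69 for IFIT3, -0.68 for IFIH1, -0.68 for HERC5, -0.66 for OASL, -0.62 for ZBTB10 and -0.61 for RSAD2. Smaller differences of this sign were -0.60 for EAF2, -0.57 for TNFAIP3, -0.54 for DUSP5, -0.50 for RRM2, -0.48 for TP53INP1, -0.47 for RIGI, -0.40 for STARD4, -0.37 for BUB1B, -0.35 for NFKB1, -0.32 for SMS, -0.31 for IDI1, -0.27 for NFKBIA, -0.24 for KIF20A, -0.22 for ELOVL7, -0.22 for MCM2 and -0.21 for AZIN1. The difference lost its call under 18 of 24 alternatives for RRP12, 16 for SNAI2, 13 for ELOVL7 and FASN, 11 for MCM2 and 10 for SLC38A4. The remaining genes here kept it under at least 19 of 24, though sizes moved with the probe set. At its smallest, the difference was 0.015 for SLC45A3, 0.15 for CAMK2N1, 0.10 for FKBP5, 0.18 for SCD, 0.34 for HK2, 0.42 for LOX, 0.30 for P4HA1, 0.081 for P4HA2, 0.44 for AMOTL1 and 1.06 for CP. For differences below 0, the smallest were -0.26 for RRM2, -0.12 for TP53INP1, -0.16 for NFKBIA, -0.54 for SGTB and -0.42 for UBE2QL1. The DHT levels of CP and 3 of the 4 LNCaP group levels of PLOD2 were under the filter of 5.88, so their differences are uncertain in size. Also under it were NPPC, TCIM, ORM1, TMCC3, SLC38A4 and SNAI2 with vehicle under either siRNA, and STYXL2 in both sicontrol groups. So were TMPRSS11E, LOX and F5 in siTRIM24 vehicle, UBE2QL1 in siTRIM24 DHT and KIF20A in both siTRIM24 groups. These differences are uncertain in size too.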

How the results depend on the processing

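Counts of genes higher and lower with DHT in siTRIM24 cells were 4824 and 6494 with every probe set taken alone, and 273 and 204 at 2-fold; in sicontrol cells they were 5486 and 6372, and 272 and 190. Which direction held more differences turned with the scaling: 475 were higher and 725 lower in siTRIM24 cells with arrays centred, and 915 and 680 with quantile normalization. Those higher numbered 339 at an adjusted p under 0.01 and 7 at 2-fold. Those lower numbered 469 with no filter, 313 at 0.01 and 3 at 2-fold. Leaving out 1 array gave 2075 to 2168 higher and 3183 to 3397 lower in siTRIM24 cells, 2369 to 2701 and 3166 to 3434 in sicontrol cells, and 530 to 711 and 480 to 925 differences, the 480 without siTRIM24 vehicle replicate 1. The replicate block gave 2278 higher and 3571 lower in siTRIM24 cells and 2604 and 3541 in sicontrol cells, with 686 and 678 differences. Of these counts under each setting, 119 stayed within 1.5 times and 15 did not. Directions turned with the probe set: on the most variable one, IDI1 gave -0.31 in siTRIM24 and -0.023 in sicontrol cells, and POLR1B gave 0.068 in sicontrol cells, and by the mean of probe sets AMOTL1 gave -0.040 and RRP12 -0.034 in siTRIM24 cells, with a difference of -0.053 for RRP12. The cause was not tested. Dim and near-saturated probe sets understate changes.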

Other observations

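Genes that modify collagen or respond to low oxygen were looked at after the value of PLOD2 was seen, so their choice rests on these data. P4HA1 and P4HA2, subunits of collagen prolyl hydroxylases, rose by 0.53 ± 0.04 and 0.67 ± 0.03 log2 units in siTRIM24 cells, against 0.03 ± 0.04 (not called) and 0.44 ± 0.03 in sicontrol cells. The mean of the probe sets gave 0.30 for each in siTRIM24 cells. PLOD1, a collagen lysyl hydroxylase, rose by 0.39 ± 0.04 in siTRIM24 cells and changed by 0.02 ± 0.04 in sicontrol cells, where it was not called. LOX, which cross-links collagen, was at 8.32, 8.35 and 8.07 in siTRIM24 DHT and at 4.88, 4.52 and 4.91 in siTRIM24 vehicle cells, a rise of 3.48 ± 0.11, against 2.76 ± 0.11 in sicontrol cells. HILPDA, a lipid droplet protein induced by low oxygen, rose by 0.60 ± 0.04 in siTRIM24 cells and 0.19 ± 0.04 in sicontrol cells.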
